A study of Mus musculus with 144 samples.

Results

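White adipose tissue (WAT) of 6-month-old nmrHAS2 mice was compared with that of CreER mice of the same age, over all genes of the count table. The contrast is between 12 of the 144 RNA-seq libraries of the series, chosen by the tissue, age and genotype in their labels: 6 nmrHAS2 libraries (3 of females, 3 of males) and 6 CreER libraries (3 of females, 3 of males), with the sexes weighted equally. The other libraries cover WAT at 24 months and 5 other tissues at both ages. The nmrHAS2 animals carry the hyaluronan synthase 2 gene of the naked mole-rat. As background from the published description of the line, and not from the labels, the transgene stands behind a stop cassette under a broadly active promoter and is switched on by a tamoxifen-activated Cre, which the CreER controls also carry, so that the Cre and the drug are shared by both groups. The labels give neither the fat depot nor the animal behind each library, so the p-values measure the spread between libraries, which may in part be technical.

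Hyaluronan is a long, unbranched sugar polymer of the extracellular matrix, spun out through the plasma membrane by hyaluronan synthases from nucleotide sugars. Cells bind it through receptors such as CD44 and LYVE1, proteoglycans such as versican anchor it in the matrix, and hyaluronidases and lysosomal glycosidases break it down. White fat is made of lipid-storing adipocytes that release hormones such as leptin and adiponectin, held in a stroma of fibroblast-like progenitors, vessels, macrophages and lymphocytes. Its RNA, extracted from ground frozen tissue, also holds that of any neighbouring tissue dissected with it.

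The adipocyte markers were abundant in all 12 libraries. Levels below are CPM after TMM scaling, that is, counts relative to the scaled library total, unless raw CPM is named. Adipoq, the gene of adiponectin, ranged over 2110 to 3760 CPM in nmrHAS2 libraries and over 2400 to 5010 CPM in CreER libraries. Fabp4, a fatty acid carrier, ranged over 5980 to 11900 CPM in nmrHAS2 libraries and 5350 to 12500 CPM in CreER libraries. Depth was 79844057 to 85260887 counts in nmrHAS2 females and 69028692 to 83457221 counts in CreER females, and 38629496 to 40754130 counts in nmrHAS2 males and 38494707 to 39883016 counts in CreER males. The libraries of the sexes also differed in make-up, and the labels name no library kit. In females 2.72% to 5.57% of counts fell on the small nuclear and structural RNAs Rn7sk, Rmrp and Rpph1, against at most 0.000291% in males, in both genotypes alike. The genotype effect was therefore estimated within each sex and averaged, and no difference in level between females and males is reported. Where a library is set beside all others below, libraries of both sexes are among them.

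Several libraries also carried transcripts of other tissues. The nmrHAS2 female 3 library had the highest raw CPM of smooth muscle genes, with 4110 summed over the list, and held 261 raw CPM of Krt18 and 54.8 raw CPM of Krt5, both epithelial keratins. The nmrHAS2 male 3 library had 1950 raw CPM of Alb, the gene of serum albumin made in liver, against 15.8 to 314 raw CPM in the other 11. CreER female 3 had 826 raw CPM of Ltf, the gene of the secreted protein lactoferrin, and 84.3 raw CPM of the epithelial gene Epcam. CreER male 2 had 1530 raw CPM of Gpx5 and 786 raw CPM of Adam7, both epididymal genes, and nmrHAS2 male 2 had 25.6 and 42.7 raw CPM of them. In bulk tissue, fewer cells of a type and less RNA per cell cannot be told apart.

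Of 21109 genes tested, 21 were higher in nmrHAS2 WAT (0.0995%) and 1 was lower (0.00474%) at an adjusted p under 0.05 in edgeR's quasi-likelihood test. Of the 21 rises, 19 were genes of striated muscle, which are treated here as carried-over tissue, 1 was the transgene and 1 was Pde11a, which is named after its values were seen. The fall was AU015791. At an unadjusted p under 0.05, 764 genes were higher (3.62%) and 564 lower (2.67%), and the median log2 change over all genes tested was -0.02. Within females alone and within males alone 0 genes passed in edgeR, with 1614 and 545 at an unadjusted p under 0.05, while DESeq2 called 102 higher and 29 lower in females and 13 higher and 7 lower in males. The test of the difference between the sexes called 0 genes in edgeR, with 744 at an unadjusted p under 0.05, and DESeq2 called 12 with the female effect above the male effect and 6 with it below. The test drew its estimate of the spread from all 24 WAT libraries, 12 of them of 24-month-old mice, and with the 12 young libraries alone 0 genes passed. The count of 22 calls also depended on which library was left out: it was 35 without nmrHAS2 female 2, 25 without nmrHAS2 male 2, 19 without nmrHAS2 female 1, 8 without nmrHAS2 male 1, 2 without CreER male 1, 1 without CreER female 2, and 0 without nmrHAS2 female 3, nmrHAS2 male 3, CreER female 1, CreER female 3, CreER male 2 or CreER male 3. Same-numbered libraries of both genotypes deviated together in females (correlations of 0.25, 0.23 and 0.42) but not in every pair of males. Only female 3 and male 2 correlated best with their own number, and the labels state no pairing. With the replicate number as a block 0 of the 22 genes passed, and in females 3 other genes were called higher (Aldh3a1, Gm45062 and Sprr2a2, named after their values were seen). With the 30 genes of the skeletal muscle list taken out of the counts before the fit, 0 genes passed in edgeR. The log2 change of the transgene was 2.49 with and without these genes, while its adjusted p in edgeR went from 0.0237 to 0.0706. A Benjamini-Hochberg adjusted p depends on the p-values of the other genes tested, so a call lost in this fit does not show a smaller effect. DESeq2, on the full counts of the same 24 libraries, called 71 genes higher and 15 lower, the 22 included.

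**Figure D1:**
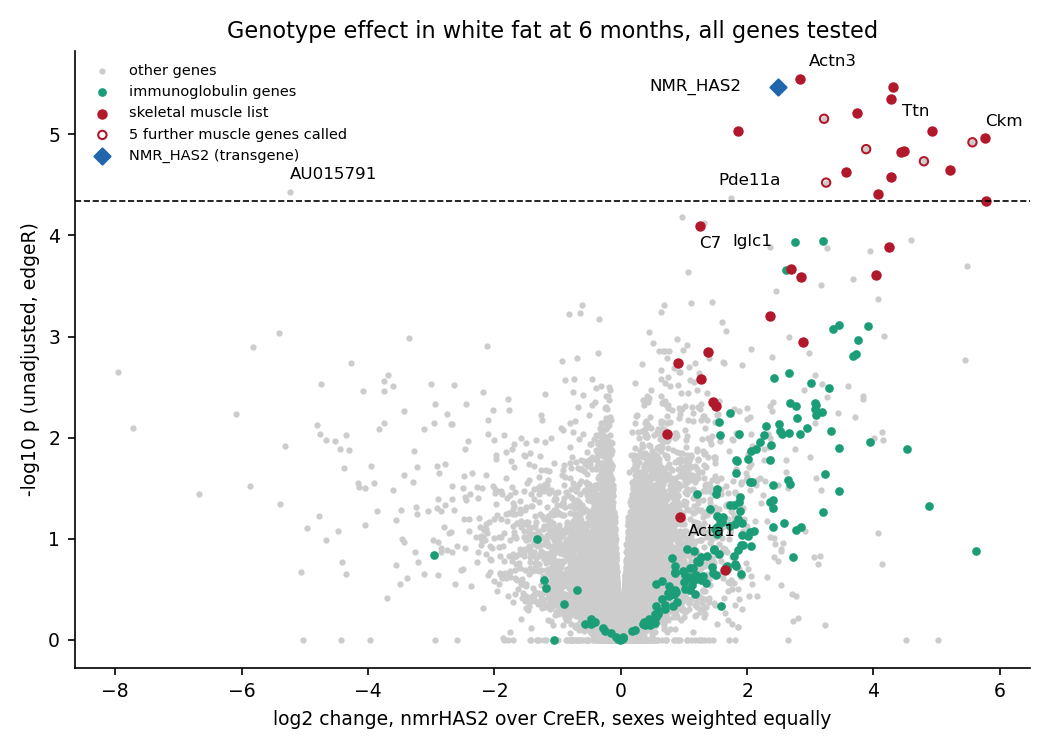
Each point is 1 of 21109 genes, with its log2 change (nmrHAS2 over CreER, sexes weighted equally) on the x axis and the unadjusted p of edgeR, as -log10, on the y axis; points on or above the dashed line have an adjusted p under 0.05. Above the line stand the transgene, 19 muscle genes and Pde11a on the right and AU015791 on the left, and the immunoglobulin genes lie mostly right of 0 and all below the line.

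The transgene was higher in nmrHAS2 fat in both sexes, at a low level. NMR_HAS2, the transgene's entry in the table, had 2.80, 3.03 and 6.17 CPM in nmrHAS2 females against 1.4, 1.53 and 0.643 CPM in CreER females. In males it had 2.90, 1.0 and 2.18 CPM in nmrHAS2 libraries against 0.217, 0.164 and 0.260 CPM in CreER libraries. The genotypes did not overlap in either sex. The log2 change in edgeR was 2.49 ± 0.38 (SE, adjusted p = 0.0237), with 1.74 in females and 3.24 in males. In neither sex alone did the transgene pass in edgeR, and the difference between the sexes did not pass (adjusted p = 1). With the 12 young libraries alone the adjusted p was 0.355, and with the replicate block 0.213. The call held without nmrHAS2 female 1, female 2, male 1 or male 2. It was lost without any 1 of the other 8 libraries (adjusted p = 0.0514 to 0.112), while the log2 change of NMR_HAS2 lay between 2.26 and 2.66 in all 12 fits that left out 1 library.

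Mouse Has2, the animals' own hyaluronan synthase gene, did not pass. It had 8.10, 6.89 and 2.13 CPM in nmrHAS2 females against 5.30, 6.55 and 2.37 CPM in CreER females, and 1.01, 0.661 and 1.35 CPM in nmrHAS2 males against 2.22, 1.01 and 1.07 CPM in CreER males. The groups overlapped in both sexes (log2 change -0.12 ± 0.32, 95% interval -0.74 to 0.50, adjusted p = 0.978). Its sign turned when any 1 of 4 libraries was left out. Reads can be shared between Has2 and the transgene. At the same age, Has2 was called higher by edgeR in nmrHAS2 kidney (log2 change 5.16, adjusted p = 0.000981). It was also called higher in nmrHAS2 muscle (4.16, adjusted p = 0.000758). The transgene differed by 11.2 in kidney and 9.12 in muscle. Has2 did not pass in intestine (1.04) or spleen (-0.07). Whether transgene reads were counted as Has2 was not tested. The ratio of transgene to Has2 counts was measured in each WAT library. In nmrHAS2 females there were 0.345, 0.440 and 2.89 transgene counts for each Has2 count, and in nmrHAS2 males 2.88, 1.52 and 1.62. In CreER females the ratio was 0.264, 0.235 and 0.272, and in CreER males 0.0978, 0.163 and 0.244. Within each sex, every nmrHAS2 library had a higher ratio than any CreER library. The ratio uses the same transgene counts as the levels above, so it is not a separate check.

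**Figure D2:**
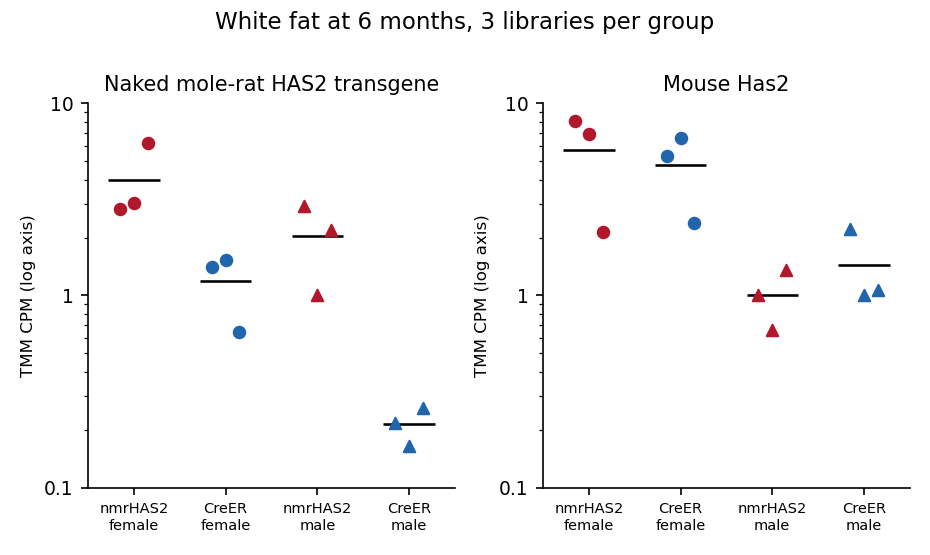
TMM-scaled CPM on a log axis of the transgene (left) and of mouse Has2 (right) in each of 12 libraries; circles are females, triangles males, red nmrHAS2, blue CreER, and bars are group means. The transgene's genotypes do not overlap within a sex, while those of Has2 do.

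The largest group of called genes was made of skeletal muscle transcripts. Of 30 genes on the muscle list 29 were tested, 14 passed, all higher in nmrHAS2 fat, against 0.0995% of all genes called in that direction, and the list's median log2 change was 2.88 against -0.02 over all genes. All 29 had a positive log2 change, between 0.73 and 5.79. Another 5 called genes belong to striated muscle as well, among them Tmod4, Ampd1, Myom2 and Myoz1, named after their values were seen. Ckm, the creatine kinase of muscle that buffers ATP, had 24.6, 4.31 and 87.2 CPM in nmrHAS2 females against 0.818, 0.536 and 0.515 CPM in CreER females. In males it had 21, 0.367 and 31.8 CPM in nmrHAS2 libraries against 0.0723, 0.935 and 0.0780 CPM in CreER libraries. The nmrHAS2 male 2 library lay within the CreER range, and the other 5 nmrHAS2 libraries lay above it. The log2 change of Ckm was 5.77 ± 0.97 (adjusted p = 0.0241), with 5.95 in females and 5.59 in males.

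The muscle genes are known for different parts of the contractile machine, and their promoters are among the best studied of muscle-specific genes. The sequences below are the 250 bases before the RefSeq start of 4 of the called genes (build GRCm38.p6, 5′ to 3′ on the gene's strand), shown because they carry the motif letters associated with muscle transcription. Capitals mark CAGCTG, the E-box core bound by the MyoD family, in Ckm and Myh4. In Ttn and Xirp2 they mark CTA and TAG with any 4 bases between them, a pattern wider than MEF2 sites, which hold A or T there. Ckm lies on the plus strand at chr7:19410844-19411093, Myh4 on the plus strand at chr11:67237562-67237811, Ttn on the minus strand at chr2:76982548-76982797 and Xirp2 on the plus strand at chr2:67445752-67446001.
Ckm: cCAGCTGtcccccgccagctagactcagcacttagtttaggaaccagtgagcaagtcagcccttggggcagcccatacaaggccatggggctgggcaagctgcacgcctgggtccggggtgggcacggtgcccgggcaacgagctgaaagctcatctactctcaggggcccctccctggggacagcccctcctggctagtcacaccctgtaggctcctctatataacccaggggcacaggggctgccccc
Myh4: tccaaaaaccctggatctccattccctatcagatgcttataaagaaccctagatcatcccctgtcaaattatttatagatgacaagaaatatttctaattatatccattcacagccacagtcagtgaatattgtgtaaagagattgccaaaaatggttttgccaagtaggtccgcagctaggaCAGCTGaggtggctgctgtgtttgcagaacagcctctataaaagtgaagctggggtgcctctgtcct
Ttn: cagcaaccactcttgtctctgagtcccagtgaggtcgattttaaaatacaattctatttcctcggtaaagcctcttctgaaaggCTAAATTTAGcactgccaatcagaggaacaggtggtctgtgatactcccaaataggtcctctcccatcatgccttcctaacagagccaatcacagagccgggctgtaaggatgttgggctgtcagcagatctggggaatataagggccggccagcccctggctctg
Xirp2: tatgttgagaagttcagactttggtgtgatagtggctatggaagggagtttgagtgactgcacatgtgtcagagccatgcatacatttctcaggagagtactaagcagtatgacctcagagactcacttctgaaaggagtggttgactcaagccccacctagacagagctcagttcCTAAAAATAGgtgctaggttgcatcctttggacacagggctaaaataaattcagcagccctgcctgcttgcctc
Of the 19 called muscle genes, 10 had a promoter window (250 bases before to 50 after the start). CAGCTG was in 4 of these 10 (Atp2a1, Ckm, Myh4 and Mylpf) against 18.3% of 27025 genes with a window. CTA and TAG with any 4 bases between them, the wider pattern, was in 2 of 10 (Ttn and Xirp2) against 4.23%. Both motifs read the same on either strand, and no window was searched for other motifs. A match describes the letters only, and no binding was measured.

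Among the filament genes, Ttn, which encodes the giant spring protein titin, had 108, 21.5 and 283 CPM in nmrHAS2 females against 4.99, 4.68 and 5.33 CPM in CreER females. In males Ttn had 9.52, 1.27 and 10.7 CPM in nmrHAS2 libraries against 0.578, 0.795 and 0.156 CPM in CreER libraries, so that the genotypes did not overlap in either sex (log2 change 4.28 ± 0.67, adjusted p = 0.0237). Actn3, the alpha-actinin of fast fibres, also showed no overlap: 10.4, 4.26 and 30.6 CPM in nmrHAS2 females against 2.30, 2.09 and 1.48 CPM in CreER females, and 10.0, 5.14 and 13.5 CPM in nmrHAS2 males against 0.915, 2.29 and 1.09 CPM in CreER males. Its log2 change was 2.84 ± 0.43, with the smallest p of all genes (adjusted p = 0.0237). On the log2 scale, Mylpf, the regulatory light chain of fast myosin, rose by 4.30 ± 0.66 (adjusted p = 0.0237), and the fast myosin heavy chain Myh1 by 3.73 ± 0.60 (adjusted p = 0.0241). The other called members were the myosins Myh2 and Myh4, the troponins Tnnt3, Tnni2 and Tnnc2, nebulin (Neb), the Z-disc genes Tcap and Xirp2, and Atp2a1, the calcium pump of the sarcoplasmic reticulum. Tnnt3, the fast troponin T, had 23.7, 3.93 and 72.1 CPM in nmrHAS2 females against 0.740, 1.27 and 1.38 CPM in CreER females, and 25.8, 0.612 and 42.9 CPM in nmrHAS2 males against 0.265, 1.71 and 0.208 CPM in CreER males (log2 change 4.93 ± 0.82, adjusted p = 0.0241). Acta1, the actin of skeletal muscle, had 64.7, 50.1 and 151 CPM in nmrHAS2 females against 53.2, 33.9 and 32.1 CPM in CreER females, and 41.0, 8.81 and 59.4 CPM in nmrHAS2 males against 31.2, 18.9 and 16.6 CPM in CreER males. The Acta1 groups overlapped in both sexes (log2 change 0.93 ± 0.47, adjusted p = 0.805).

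**Figure D3:**
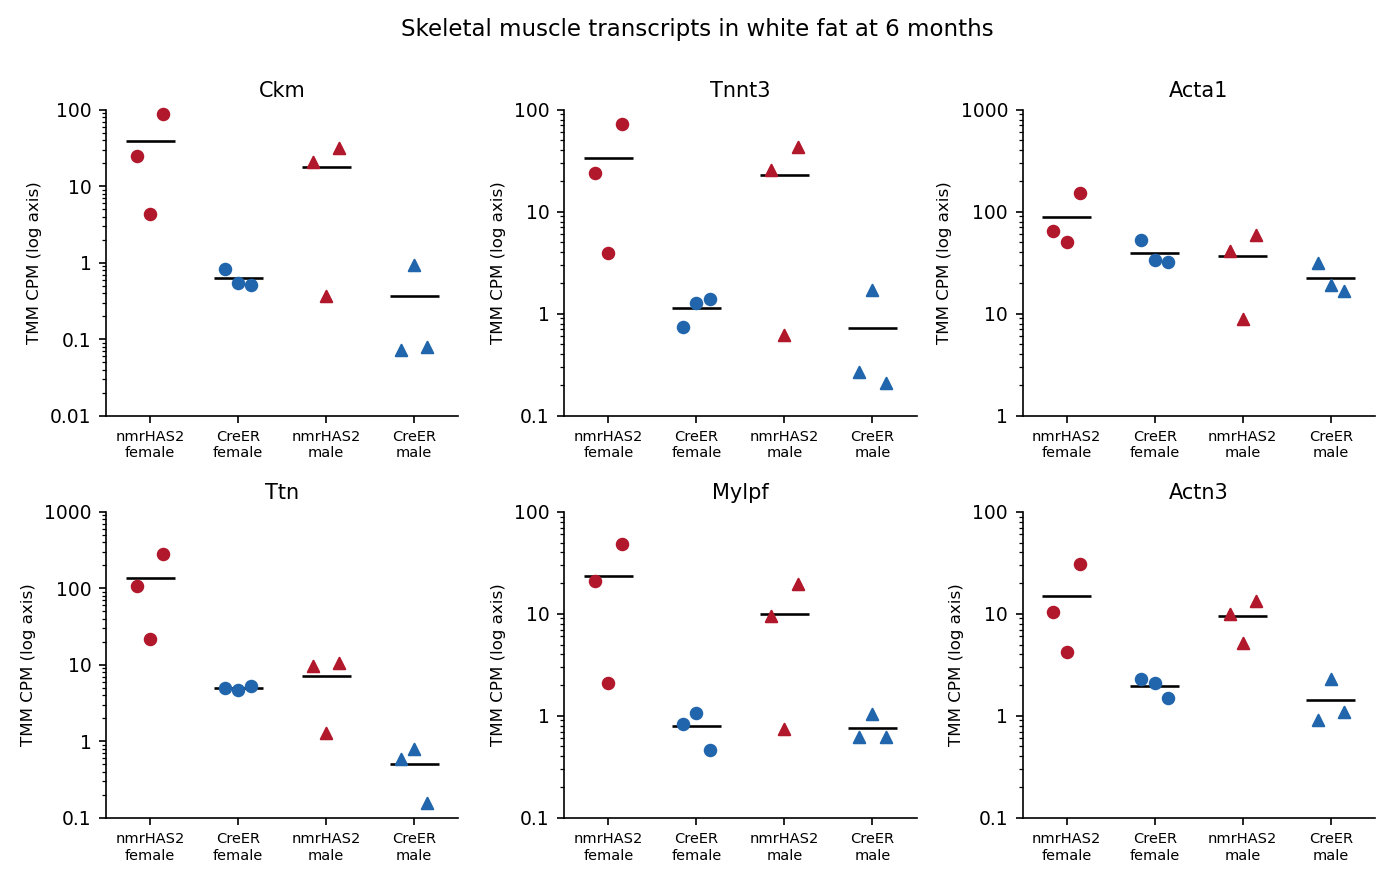
TMM-scaled CPM on a log axis of 6 muscle genes in each of 12 libraries (circles females, triangles males, red nmrHAS2, blue CreER, bars group means). For Ckm, Tnnt3 and Mylpf the nmrHAS2 male 2 library lies among the CreER males; Acta1 overlaps between genotypes in both sexes.

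The 5 further muscle genes were at low levels. Tmod4, a cap of the thin filament, had 0.220 to 3.29 CPM in nmrHAS2 females against 0.0579 to 0.126 CPM in CreER females (log2 change 3.22 ± 0.52). On the log2 scale, Myom2, an M-band protein, rose by 3.88 ± 0.67 and Myoz1, a Z-disc protein, by 4.80 ± 0.84. Ampd1, the AMP deaminase of muscle, had 1.17, 0.0734 and 1.87 CPM in nmrHAS2 males and was at or under 0.0234 CPM in CreER males, below the 3-count floor of 0.0752 to 0.0779 raw CPM, so no fold is given. All 21 rises showed no overlap between genotypes in females, as did 5.94% of all genes with nmrHAS2 higher, and 10 of the 21 also none in males, as did 0.606% of all genes in both sexes. The 21 were called from the same values, so nothing is read from these counts.

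The amount of muscle RNA was small and uneven. Summed over the list it was 476, 173 and 1440 raw CPM in nmrHAS2 females against 109, 89.5 and 85.7 raw CPM in CreER females, and 345, 90.2 and 440 raw CPM in nmrHAS2 males against 94.4, 99.2 and 85.6 raw CPM in CreER males. Set against the mean level in muscle libraries of the same sex, age and genotype, Ckm stood at 0.161%, 0.0291% and 0.611% in nmrHAS2 females and at 0.114%, 0.00201% and 0.164% in nmrHAS2 males, against 0.00526% or less in CreER libraries. The excess over CreER fat, as a percentage of the muscle level, had a median of 0.376% over the 29 genes in females (0.141% to 5.02%) and 0.0930% in males (-0.00874% to 0.159%). In muscle itself the called genes other than the transgene had log2 changes of only -0.04 to 0.60 at 6 months and 0 of them passed. The dissection of the fat is not described in the labels, and its part in the result was not tested.

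The transgene is also highly expressed in muscle of nmrHAS2 mice, so its level in fat was set beside that of Ckm. NMR_HAS2 in fat stood at 0.869%, 0.971% and 2.05% of its mean muscle level in nmrHAS2 females and at 3.79%, 1.32% and 2.7% in nmrHAS2 males, above the percentage for Ckm in all 6 libraries. Other muscle genes stood higher than Ckm in females. There the excess over CreER fat was 0.263% for Ckm, 1.39% for Myh2 and 5.02% for Tnnt1, with a median of 0.376%. In males the highest was 0.159%. The transgene values include a background, as CreER fat held 0.663 to 1.29 raw CPM in females and 0.181 to 0.26 in males. At the Ckm percentage, muscle RNA would carry 0.472, 0.0853 and 1.79 raw CPM of transgene into nmrHAS2 females and 0.0915, 0.00161 and 0.131 raw CPM into nmrHAS2 males. The libraries held 2.55, 2.84 and 6.01 raw CPM in nmrHAS2 females and 3.04, 1.06 and 2.16 raw CPM in nmrHAS2 males. Which tissue the transgene reads came from was not tested. With the summed Ckm, Tnnt3 and Acta1 level as a covariate the log2 change of the transgene was 1.87 (adjusted p = 0.442 in edgeR). Without the 4 nmrHAS2 libraries over 5 CPM of Ckm it was 1.78. That fit keeps only nmrHAS2 female 2 and nmrHAS2 male 2 of the young nmrHAS2 libraries, so no p-value is given.

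Pde11a and AU015791 were the called genes that are neither the transgene nor muscle genes. Pde11a, a phosphodiesterase that breaks down cyclic AMP and cyclic GMP, had 0.283, 0.155 and 0.193 CPM in nmrHAS2 females against 0.0629, 0.0290 and 0.0386 CPM in CreER females. In males it had 2.08, 4.70 and 1.74 CPM in nmrHAS2 libraries against 1.37, 1.4 and 0.754 CPM in CreER libraries. The genotypes did not overlap in either sex (log2 change 1.75 ± 0.33, adjusted p = 0.0426), and the counts in females were few. Its call was lost without any 1 of 11 libraries, with adjusted p between 0.0534 and 0.180 and log2 changes between 1.47 and 1.90, and held without nmrHAS2 female 2. AU015791, a long non-coding RNA in RefSeq, had 0.0773, 0.0518 and 0.0900 CPM in nmrHAS2 females against 0.614, 0.290 and 1.51 CPM in CreER females. In males it had 0.0702, 0.0489 and 0.0518 CPM in nmrHAS2 libraries against 0.0723, 23.2 and 0.390 CPM in CreER libraries. The CreER male 2 library, which held the epididymal transcripts, stood far above the rest. AU015791 was lower in nmrHAS2 fat (adjusted p = 0.0411), and the adjusted p was 0.0874 without CreER male 2. The nmrHAS2 males lay at or under the 3-count floor of 0.0736 to 0.0777 raw CPM, so no fold is given. Its call was also lost without any 1 of 10 other libraries.

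Genes that make, break down or bind hyaluronan gave no calls. Of 10 synthesis genes 0 passed in either direction (median log2 change -0.12), of 8 breakdown genes 0 (median -0.04), and of 23 receptors and binding proteins 0 (median 0.05). In these 3 lists 0 genes had an unadjusted p under 0.05, against 3.62% of all genes higher and 2.67% lower. Of all genes tested 0.104% were called, so 0 calls in lists of this size sets them apart from no others. Among the enzymes, Has3 averaged 1.77 ± 0.20 CPM in nmrHAS2 females and 2.55 ± 0.93 CPM in CreER females, and 2.66 ± 0.39 CPM in nmrHAS2 males and 3.58 ± 0.81 CPM in CreER males (SD, n = 3 each; log2 change -0.48 ± 0.30, adjusted p = 0.829 from edgeR). Ugdh, which makes the UDP-glucuronic acid building block, had 62.1, 71.2 and 122 CPM in nmrHAS2 females against 58.8, 70.4 and 37.7 CPM in CreER females, while both male groups lay within 49.9 to 63.2 CPM (0.28 ± 0.17, adjusted p = 0.821). Gnpnat1 and Gfpt2, which act in the making of the amino sugar block, had log2 changes of -0.19 and -0.22. On the breakdown side Hyal2, a membrane-anchored hyaluronidase, had a 95% interval of -0.20 to 0.13, Cemip2, a cell-surface hyaluronidase, of -0.26 to 0.14, and Gusb, the lysosomal beta-glucuronidase, of -0.50 to 0.15. These intervals leave room for changes of that size.

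Among the binding proteins, Cd44 averaged 38.2 ± 7.08 CPM in nmrHAS2 females and 33.6 ± 5.61 CPM in CreER females, and 42.9 ± 6.95 CPM in nmrHAS2 males and 52.6 ± 21.4 CPM in CreER males (SD, n = 3 each), with a log2 change of -0.06 ± 0.27. Lyve1, the receptor of lymphatic vessels and some macrophages, averaged 66.3 ± 6.72 CPM in nmrHAS2 females and 52.2 ± 7.89 CPM in CreER females, and 60.0 ± 20.8 CPM in nmrHAS2 males and 58.5 ± 12.5 CPM in CreER males (SD, n = 3 each; log2 change 0.19 ± 0.18, adjusted p = 0.887 in edgeR). The members with the smallest p were Layn (0.30 ± 0.16), the receptor layilin, Stab2 (0.31 ± 0.17), a scavenger receptor of endothelium, Hapln3 (-0.61 ± 0.36), a link protein, and Tnfaip6 (-0.40 ± 0.25), which transfers heavy chains onto hyaluronan, with adjusted p of 0.805 to 0.832 in edgeR. Vcan, versican, differed by 0.06 ± 0.20 and Tlr4, the toll-like receptor reported to sense hyaluronan fragments, by 0.03 ± 0.13. Of 28 collagens and matrix genes 0 passed, with Eln, the gene of elastin, at 123, 97.6 and 72.5 CPM in nmrHAS2 females against 74.2, 57.0 and 43.0 CPM in CreER females, and at 201, 180 and 181 CPM in nmrHAS2 males against 196, 180 and 140 CPM in CreER males (0.44 ± 0.15, adjusted p = 0.635). Of 15 matrix proteases and inhibitors 0 passed. Timp4, an inhibitor of metalloproteases, had 77.9, 93.0 and 61.9 CPM in nmrHAS2 females against 187, 197 and 113 CPM in CreER females, and 380, 446 and 452 CPM in nmrHAS2 males against 301, 354 and 336 CPM in CreER males. Timp4 was thus lower in females and higher in males without overlap, with log2 changes of -1.09 and 0.37, and the difference between the sexes did not pass (adjusted p = 1).

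**Figure D4:**
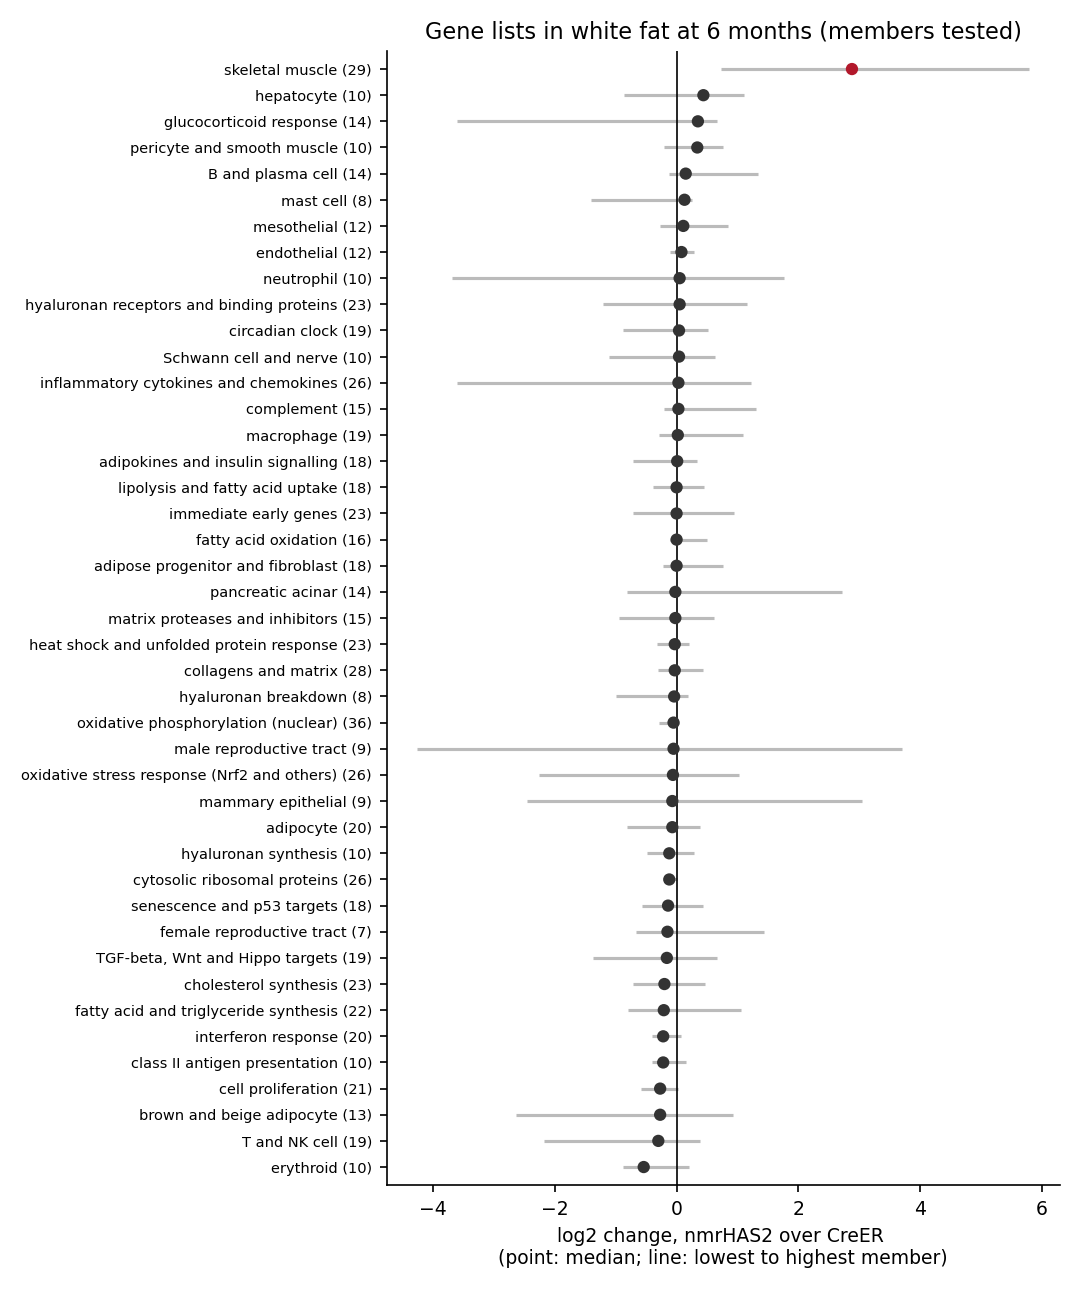
Median (point) and lowest to highest (line) log2 change, nmrHAS2 over CreER, of the members tested in 43 gene lists, with the number tested in brackets. The skeletal muscle median of 2.88 stands apart on the right, and the other 42 medians lie between -0.54 and 0.44.

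Across the 43 gene lists, the muscle list was the only one with a called gene in edgeR. As 0.104% of all genes tested were called, 0 calls in any other list, here and below, is no result about its genes. The other 42 medians lay between -0.54 for erythroid genes and 0.44 for hepatocyte genes, and 38 of them within 0.3 of 0. Of 667 genes in these lists 36 had an unadjusted p under 0.05 in edgeR, against 1328 of all 21109 genes tested, so nothing is read from that count. DESeq2 called 2 genes of these lists higher (C7 and Try4, a pancreatic trypsin gene near 0 CPM) and 2 lower (Dio2 and Lcn2). The hepatocyte median was -1.50 in females, where CreER female 2 had 107 raw CPM of Alb and the other 5 libraries 15.8 to 43.5 raw CPM, and 2.02 in males, where nmrHAS2 male 3 had 1950 raw CPM. The summed level of the hepatocyte list was nonetheless 1650 to 4910 raw CPM in nmrHAS2 females. In CreER females it was lower, at 1180 to 1490 raw CPM. Alb did not follow that sum. It had 43.5, 33.1 and 15.8 raw CPM in nmrHAS2 females against 21.5, 107 and 17.6 raw CPM in CreER females. The sum of 4910 raw CPM was in nmrHAS2 female 3, the library with the lowest Alb. Cyp2e1, another member of the list, averaged 1863 CPM over the young WAT libraries, so it weighs heavily in these sums. Its log2 change was 0.83 ± 0.30 (adjusted p = 0.671 in edgeR). Whether the higher sum stands for liver RNA was not tested.

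The fat cell programme gave no calls. Of 20 adipocyte genes 0 passed (median log2 change -0.07), of 22 genes of fatty acid and triglyceride synthesis 0 (median -0.21), of 18 lipolysis and fatty acid uptake genes 0 (median 0.00), of 18 adipokine and insulin signalling genes 0 (median 0.01), and of 23 cholesterol synthesis genes 0 (median -0.20). Adipoq differed by -0.24 ± 0.25, Plin1, the coat protein of the lipid droplet, by -0.12 ± 0.24, Fabp4 by -0.04 ± 0.24 and Cidec, which drives droplet fusion, by -0.18 ± 0.18, all with adjusted p of at least 0.896 in edgeR. Lep, the gene of leptin, had 971, 1460 and 176 CPM in nmrHAS2 females against 1950, 1850 and 1300 CPM in CreER females, and 3020, 2430 and 2630 CPM in nmrHAS2 males against 2380, 2670 and 3940 CPM in CreER males. The lowest leptin value was in the nmrHAS2 female 3 library, which also had the lowest Plin1 (489 CPM), and the log2 change of -0.56 ± 0.43 did not pass (adjusted p = 0.864).

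Among the lipid synthesis genes, Acacb, the mitochondrial acetyl-CoA carboxylase whose product restrains fatty acid oxidation, had 56.0, 32.2 and 203 CPM in nmrHAS2 females against 38.5, 52.6 and 36.4 CPM in CreER females. In males Acacb had 125, 186 and 158 CPM in nmrHAS2 libraries against 86.2, 78.7 and 79.8 CPM in CreER libraries, with no overlap (1.06 ± 0.32, adjusted p = 0.558). Scd1, the stearoyl-CoA desaturase of fat and liver, averaged 29700 ± 2910 CPM in nmrHAS2 males and 20300 ± 4140 CPM in CreER males (SD, n = 3 each), and 17800 ± 7320 CPM in nmrHAS2 females and 10300 ± 4660 CPM in CreER females. Its log2 change was 0.67 ± 0.35 (adjusted p = 0.805). Scd2, its paralogue, had -0.80 ± 0.42, Insig1, which holds back sterol-driven lipogenesis, -0.71 ± 0.30, Gpd1, which supplies the glycerol backbone, -0.81 ± 0.38, and Thrsp, a lipogenic gene, -0.45 ± 0.46, none past the threshold. In the lipolysis list Slc27a1, a fatty acid transporter, had 0.42 ± 0.22, Angptl4, an inhibitor of lipoprotein lipase, 0.45 ± 0.30, the adenosine receptor Adora1 -0.28 ± 0.14 and the beta-adrenergic receptor Adrb1 -0.31 ± 0.20. Irs1, an adaptor of the insulin receptor, had 58.8, 61.8 and 64.2 CPM in nmrHAS2 males against 44.4, 42.4 and 49.6 CPM in CreER males, while the female groups overlapped (0.33 ± 0.18, adjusted p = 0.809). Pik3r1, Nampt and Foxo1 had log2 changes of 0.29, 0.25 and 0.16 with adjusted p of 0.838 to 0.857 in edgeR.

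Brown and beige fat genes gave 0 calls among 13 tested (median -0.27). Ucp1, the uncoupling protein of brown fat, had 2.60, 1.11 and 22.3 CPM in nmrHAS2 females against 0.771, 23.2 and 0.232 CPM in CreER females. In males it was at or under 0.0234 CPM in nmrHAS2 libraries and at or under 0.241 CPM in CreER libraries. In each genotype 1 female library thus held most of it, and Ucp1 did not pass (adjusted p = 0.866). The nmrHAS2 males lay under the 3-count floor, so no fold is given. Dio2, the deiodinase that activates thyroid hormone, had 1.62, 0.829 and 1.73 CPM in nmrHAS2 females against 0.504, 2.10 and 80.4 CPM in CreER females. The value of 80.4 CPM was in CreER female 3, the library with Ltf and Epcam, and the log2 change of Dio2 was -2.64 ± 0.77 with it (adjusted p = 0.528) and -0.43 without it. Ppargc1a, a coactivator of mitochondrial genes, had 0.48 ± 0.30 and Prdm16, a regulator of beige fat, -0.27 ± 0.19. Of 36 nuclear genes of oxidative phosphorylation 0 passed, with a median of -0.05.

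The stromal and vascular lists gave no calls. Fmo2, a flavin monooxygenase of adipose fibroblasts, was the member of the 18 progenitor and fibroblast genes with the smallest p. It was the only one of them without overlap in both sexes, as were 0.606% of all genes with nmrHAS2 higher. Both traits come from the same values, so nothing is read from that count. It had 154, 166 and 255 CPM in nmrHAS2 females against 127, 71.7 and 125 CPM in CreER females, and 230, 254 and 199 CPM in nmrHAS2 males against 110, 193 and 119 CPM in CreER males (0.76 ± 0.20, adjusted p = 0.399). Dcn, the proteoglycan decorin, had 0.18 ± 0.13, Lum, lumican, -0.22 ± 0.21 and Wnt2 0.53 ± 0.41. Of 10 pericyte and smooth muscle genes 0 passed (median 0.34). Des, the intermediate filament desmin of all muscle types, had 53.2, 84.2 and 338 CPM in nmrHAS2 females against 39.2, 49.9 and 90.2 CPM in CreER females, while males lay within 22.6 to 28.1 CPM in both genotypes (0.77 ± 0.32, adjusted p = 0.721). Myh11, the smooth muscle myosin, was likewise highest in nmrHAS2 female 3, at 1750 CPM against 75.7 to 550 CPM in the other 11 libraries. Of 12 endothelial genes 0 passed, with a median of 0.08.

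Antibody transcripts gave no calls in edgeR, and their summed level was higher in each nmrHAS2 female than in any CreER female. The 190 immunoglobulin genes tested, grouped after their values were seen, had a median log2 change of 1.53 against -0.02 over all genes. Of the 190, 170 were positive, 64 had an unadjusted p under 0.05 with nmrHAS2 higher and 0 with nmrHAS2 lower (3.62% and 2.67% of all genes tested), and 0 passed the adjusted threshold in edgeR. Their summed level was 3040, 1680 and 4680 raw CPM in nmrHAS2 females against 1240, 659 and 719 raw CPM in CreER females. In males it was 1520, 2740 and 3200 raw CPM in nmrHAS2 libraries against 3240, 1980 and 1670 raw CPM in CreER libraries, with overlap. The median was 2.55 in females and 0.29 in males. Segments of these genes share sequence, so counts can be split between them, and the genes are not independent of each other.

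Iglc1, a constant gene of the lambda light chain, showed no overlap in either sex. It had 102, 30.4 and 129 CPM in nmrHAS2 females against 4.72, 2.42 and 19.9 CPM in CreER females, and 15.1, 62.3 and 64.9 CPM in nmrHAS2 males against 13.5, 5.49 and 11 CPM in CreER males. The log2 change of 2.76 ± 0.57 missed the threshold (adjusted p = 0.0875) and passed it without nmrHAS2 female 2 (adjusted p = 0.0440) and in DESeq2. Igkc, the kappa constant gene, had 772, 421 and 1020 CPM in nmrHAS2 females against 268, 103 and 120 CPM in CreER females, and overlapped in males (1.2 ± 0.53, adjusted p = 0.740). Igha, the constant gene of IgA, had 862, 123 and 151 CPM in nmrHAS2 females against 12.4, 1.74 and 53.1 CPM in CreER females (2.07 ± 0.76, adjusted p = 0.671), and Ighm, that of IgM, differed by 0.56 ± 0.50. Jchain, which joins IgA and IgM into polymers and marks plasma cells, had 435, 148 and 441 CPM in nmrHAS2 females against 102, 26.7 and 60.9 CPM in CreER females, and 67.1, 155 and 182 CPM in nmrHAS2 males against 163, 101 and 77.9 CPM in CreER males (1.34 ± 0.50, adjusted p = 0.682). Over the 14 B and plasma cell genes the median was 0.15 and 13 were positive. Mzb1, a chaperone of antibody-secreting cells, had 0.82 ± 0.56, Sdc1, syndecan 1, 0.27 ± 0.28 and Xbp1, a regulator of secretory cells, 0.13 ± 0.15.

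**Figure D5:**
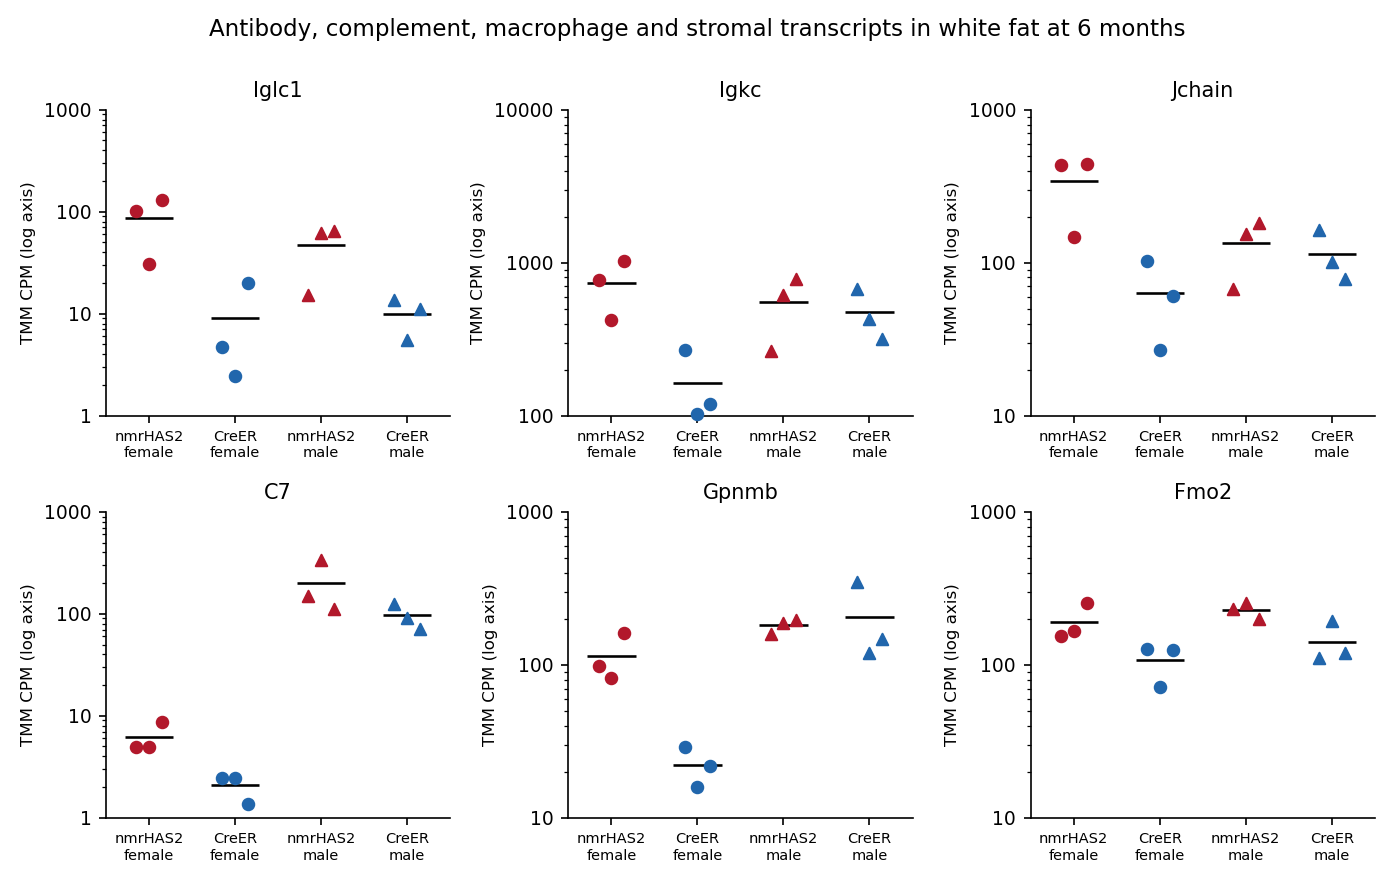
TMM-scaled CPM on a log axis of 6 transcripts that did not pass the adjusted threshold, in each of 12 libraries (circles females, triangles males, red nmrHAS2, blue CreER, bars group means). Iglc1 and Fmo2 show no overlap between genotypes within either sex, while Igkc, Jchain, C7 and Gpnmb show none in females only.

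Among 15 complement genes 0 passed (median 0.03). C7, a subunit of the membrane attack complex, came closest. It had 4.96, 4.90 and 8.70 CPM in nmrHAS2 females against 2.45, 2.46 and 1.35 CPM in CreER females, and 149, 339 and 111 CPM in nmrHAS2 males against 126, 91.4 and 71.6 CPM in CreER males. The log2 change was 1.31 ± 0.26 (adjusted p = 0.0662), and it passed without nmrHAS2 female 2 (adjusted p = 0.0497) and in DESeq2. Cfd, the adipocyte serine protease adipsin, had 0.38 ± 0.32, C2 0.18 ± 0.18 and Cfb -0.20 ± 0.17.

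Of 19 macrophage genes 0 passed (median 0.02). Gpnmb, a glycoprotein of lipid-laden macrophages, had 97.9, 82.1 and 162 CPM in nmrHAS2 females against 29.2, 15.8 and 21.7 CPM in CreER females. In males it had 160, 189 and 195 CPM in nmrHAS2 libraries against 347, 119 and 147 CPM in CreER libraries. Its log2 change was 2.36 in females and -0.17 in males, 1.09 ± 0.32 with the sexes weighted equally (adjusted p = 0.522), and the difference between the sexes did not pass (adjusted p = 1). Mertk, a receptor for the uptake of dying cells, had 0.41 ± 0.18, Ccr2, the chemokine receptor of monocytes, -0.29 ± 0.18 and Lyz2, lysozyme, 0.14 ± 0.21. Among 26 cytokine and chemokine genes 0 passed. Cxcl13, which draws B cells, had 44.5, 22.8 and 27.4 CPM in nmrHAS2 females against 13.7, 8.07 and 2.78 CPM in CreER females, with overlap in males (1.23 ± 0.64, adjusted p = 0.805). Lcn2, lipocalin 2, had 75.7 CPM in CreER female 3 and 312 CPM in CreER male 2 against at most 20.1 CPM in the other 10 libraries, and its log2 change of -3.61 ± 1.06 (adjusted p = 0.528) was -0.73 without CreER female 3, -1.98 without CreER male 2 and 0.86 without nmrHAS2 female 3, nmrHAS2 male 3, CreER female 3 and CreER male 2 together. Ccl8, a monocyte chemokine, had 0.51 ± 0.49 and Nos2, the inducible nitric oxide synthase, -0.29 ± 0.25. Of 10 class II antigen presentation genes 0 passed (median -0.22), with H2-Ab1 at -0.27 ± 0.19, H2-Eb1 at -0.26 ± 0.20, H2-DMa at -0.30 ± 0.25 and H2-DMb1 at -0.40 ± 0.22.

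Of 26 genes of the oxidative stress response 0 passed (median -0.06). Gsta4, a glutathione transferase for lipid peroxidation products, had 368 CPM in nmrHAS2 female 3 against 14.7 to 49.2 CPM in the other 11 libraries (1.03 ± 0.40, adjusted p = 0.696), and its log2 change was 0.04 without that library. Nqo1, a quinone reductase, was also highest there, at 31.0 CPM (0.74 ± 0.30). Gsta3 had 0.50 ± 0.22. Slc7a11, the cystine transporter, had 99.7 CPM in CreER female 3 against 0.378 to 7.30 CPM in the other 11, and its log2 change of -2.26 ± 1.02 turned to 0.98 without that library. The lists of interferon response (20 tested, median -0.22), cell proliferation (21, median -0.27), senescence and p53 targets (18, median -0.14), heat shock and unfolded protein response (23, median -0.03), circadian clock (19, median 0.04) and cytosolic ribosomal proteins (26, median -0.12) had 0 calls each in edgeR.

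Set beside the same comparison at 24 months, the muscle transcripts did not recur. Apart from the transgene, the genes called at 6 months had log2 changes of -1.27 to 1.13 at 24 months, and none passed there (lowest adjusted p = 1). Ckm differed by 5.77 at 6 months and by 0.02 at 24 months, and Ttn by 4.28 at 6 months and by -0.70 at 24 months. The test of the difference between the ages called 0 genes in edgeR, with 1287 at an unadjusted p under 0.05 and a lowest adjusted p of 0.194, and DESeq2 called 44 with the 6-month effect above the 24-month effect and 73 with it below. The transgene's log2 change was 3.63 at 24 months, where 33 genes were called higher and 1 lower (0.161% in all). At that age the 14 pancreatic acinar genes tested had a median log2 change of 11.86, against -0.02 at 6 months. The source of these transcripts was not tested.

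In the other tissues at 6 months, fitted one by one, the transgene was the only gene called in WAT that was also called in intestine, kidney, muscle and spleen, and none was called in liver. Of the 22, 14 could be tested in intestine, 20 in kidney, 14 in liver, 21 in muscle and 19 in spleen. Those comparisons called 0.00474% of the genes tested in intestine, 6.47% in kidney, 0.0463% in liver, 0.0111% in muscle and 0.0048% in spleen, in either direction. In liver, Ckm differed by 4.96 ± 1.16 (adjusted p = 0.0618), Tnnt3 by 5.78 ± 1.28 (adjusted p = 0.0609) and Ttn by 4.23 ± 0.94 (adjusted p = 0.0609) between nmrHAS2 and CreER, without passing. Iglc1 was higher in nmrHAS2 kidney (2.19 ± 0.49, adjusted p = 0.0139) and differed by 0.67, 0.54, 0.47 and -3.20 in liver, spleen, intestine and muscle, without passing. C7 differed by 0.87 in both liver and spleen, 0.68 in kidney, 0.10 in muscle and -0.28 in intestine, none past the threshold. Libraries of several tissues may come from the same animals, which the labels do not state.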

How the data were processed

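RNA was measured by RNA-seq in 144 mouse libraries, and the 24 WAT libraries were used here. The authors deposited 1 table of expected counts for 40946 gene entries, not normalised, with reads trimmed by Trim Galore 0.6.5 and quantified by Salmon 1.4.0, per the submitters' processing notes. Neither build nor annotation was given in the sources used here. Salmon divides reads shared by similar transcripts, so values of the transgene and Has2, and of related immunoglobulin or myosin genes, depend on that division.

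The expected counts were rounded to whole numbers, filtered with filterByExpr (21109 genes left) and scaled by TMM. edgeR 4.0.16 (R 4.3.3) fitted the 8 combinations of genotype, sex and age, each of 3 libraries, sharing 1 estimate of the spread, and its two-sided quasi-likelihood F test gave p-values, adjusted by Benjamini-Hochberg over all genes tested, with a threshold of 0.05. The contrast was the mean of both nmrHAS2 groups minus the mean of both CreER groups at 6 months. SE values were derived from the F statistics. Levels are TMM-scaled CPM, and raw CPM uses the library total without TMM scaling. With 3 counts as a floor, the lowest measurable level was 0.0352 to 0.0779 raw CPM, for counting error only. Alternatives were RLE scaling, no filter, 12 libraries only, a replicate block, muscle genes removed or as a covariate, limma-trend (limma 3.58.1), DESeq2 1.42.0 and each library left out. Same-numbered libraries correlated over 0.1 in all 3 female pairs and in 2 of 3 male pairs, and the labels state no pairing.

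The comparison and gene lists were chosen with earlier results of these data known. By rule the text names the transgene, Has2, the 10 strongest rises and falls among called genes over a mean of 2 CPM that lie outside the muscle list, the 4 genes of smallest p in each list described, 3 muscle markers and 6 markers of fat. Any other gene named, the called muscle genes and Pde11a included, was chosen after its values were seen. Lists are described by counts and medians, without a set test. Promoter sequences are from RefSeq on GRCm38.p6. Some genes that the rule names are not reported here.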

Additional observations from a re-analysis of the deposited data

Results flagged for a closer look

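Each genotype's 6 libraries were searched for a library far from the other 5, in 108 groups of values (summed raw CPM of the gene lists, and TMM-scaled CPM of the named markers), and 12 stood out. Chance alone marks about 5% of groups of like libraries. Each of these groups mixes 3 females and 3 males, whose libraries differ in depth and make-up, so that share need not hold here. The 12 lie in 3 libraries.

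In nmrHAS2 female 3 the pericyte and smooth muscle genes summed to 4110 raw CPM (the other nmrHAS2 libraries held 811 to 1350), and the mammary epithelial genes to 457 raw CPM (others 124 to 191). Its cytosolic ribosomal protein genes summed to 12600 raw CPM (others 7000 to 7840), its adipokine and insulin signalling genes to 4630 raw CPM (others 7250 to 9150), and its Plin1 level was 489 CPM (others 1150 to 1660).

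In CreER female 3 the adipocyte genes summed to 33100 raw CPM (the other CreER libraries held 51500 to 62600), and the adipose progenitor and fibroblast genes to 10000 raw CPM (others 12500 to 13900). Its pericyte and smooth muscle genes summed to 2030 raw CPM (others 846 to 947), its neutrophil list to 851 raw CPM, of which Ltf made up 826 (others 9.44 to 21.7 for the list), and its cytosolic ribosomal protein genes to 16200 raw CPM (others 6510 to 8290). Plin1 was at 624 CPM there (others 1300 to 1680).

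In CreER male 2 the male reproductive tract genes summed to 4170 raw CPM (the other CreER libraries held 205 to 304).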

How the results depend on the processing

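The counts were 21 higher and 1 lower in the main comparison and 0 in females, in males, for the sex difference and for the age difference. RLE scaling called the same 22 genes. Without the filter on low counts 20 genes were higher, and females gave 2 higher. With the 12 young libraries alone, with the muscle list removed, or with the muscle covariate, 0 were higher and 0 lower. With a replicate block 3 were higher and 1 lower, none of them among the 22, with 3 higher in females, 1 higher and 1 lower in males, 2 higher and 1 lower for the sex difference and 3 higher and 2 lower for the age difference. The same-numbered libraries correlated at 0.25, 0.23 and 0.42 in females and -0.09, 0.16 and 0.13 in males, and 1 library number of 3 in each sex correlated best with its own number; the labels state no pairing. limma-trend gave 2 higher and 0 lower, both among the 22, with 4 higher in females and 1 lower for the age difference. DESeq2 gave 71 higher and 15 lower, including all 22, with 102 and 29 in females, 13 and 7 in males, 12 and 6 for the sex difference, and 44 and 73 for the age difference. Leaving out 1 library gave 0 to 35 higher and 0 to 1 lower, in females 0 to 38 and 0 to 1, in males 0 to 2 and 0 to 2, for the sex difference 0 to 1 and 0 to 1, and for the age difference 0 to 4 and 0 to 1. Chosen after seeing the data, leaving out 4 libraries with other tissues' transcripts (nmrHAS2 female 3 and male 3, CreER female 3 and male 2; nmrHAS2 male 2, with less of the epididymal Gpx5 and Adam7, was kept) gave 0 higher and 1 lower, with 1 lower in males and 1 higher for the sex difference. Likewise chosen, leaving out the 4 nmrHAS2 libraries over 5 CPM of Ckm gave a log2 change of 1.78 for the transgene. Only nmrHAS2 female 2 and nmrHAS2 male 2 remain of the young nmrHAS2 libraries, so no count of calls is given. The log2 change of the transgene NMR_HAS2 was 2.5 with the 12 young libraries alone (adjusted p = 0.355), 2.43 with the block (0.213), 2.49 with the muscle list removed (0.0706) and 2.01 without nmrHAS2 female 3 and male 3 and CreER female 3 and male 2 (0.283), and its call held under RLE scaling, no filter, limma-trend and DESeq2. The cause was not tested.

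Over all named genes and alternatives, 1810 values kept direction and side of the threshold, 216 lost the call, 6 gained it and 28 changed direction, as follows. Under the muscle covariate the log2 change was 0.17 for Thrsp, 0.05 for Plin1, -0.49 for Acta1 and -0.02 for Sdc1. Without nmrHAS2 female 3 and male 3 and CreER female 3 and male 2 it was -0.06 for Ugdh, 0.86 for Lcn2, 0.67 for Slc7a11, -0.14 for Sdc1 and -0.18 for Ighm. Without the 4 Ckm-rich libraries it was -0.06 for Lmod1, 0.09 for Plin1, -0.50 for Acta1 and -0.42 for Sdc1. With 1 library left out the range was -0.28 to 0.12 for Has2, -2.86 to 0.27 for Ucp1 (fitted values, with nmrHAS2 males under the floor), -0.65 to 0.02 for Thrsp, -0.13 to 0.04 for Fabp4, -3.12 to 0.98 for Slc7a11, -0.10 to 1.02 for Myh11, -0.12 to 0.73 for Lmod1, -0.26 to 0.03 for Plin1, -0.27 to 0.46 for Sdc1 and -0.37 to 0.05 for Gfpt2. Depth limits genes near the floor, such as Pde11a in females and Ampd1 in males.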
